A study of Mus musculus with 12 samples.

Results

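The genes described here are 10 antioxidant and iron handling genes, Hmox1, Gclm, Txnrd1, Prdx1, Srxn1, Sod2, Gpx1, Fth1, Ftl1 and Slc40a1. The rule takes them by symbol and uses no measured value, although the list was drawn up with earlier results of these data known, and all 10 were found among the 47643 gene identifiers of each expression table. Macrophages (Mϕ) came from the peritoneal lavage of female C57/BL6 mice, 8 to 12 weeks old, at day 6 after they had received zymosan i.p. at 5 mg/kg, which is a yeast wall particle and causes a peritonitis which resolves by itself. From day 1 the mice were injected each day with CIII (25 mg/kg), an inhibitor of the prostaglandin E2 synthase mPGES-1, or with its vehicle of Tween-80, carboxymethyl cellulose and NaCl (VEH). F4/80lo Mϕ were sorted as CD45+, CD11b+, low for F4/80 and MerTK and high for MHCII by the sample labels, and F4/80hi Mϕ as CD45+, CD11b+ and high for F4/80 and MerTK. The study's description of its FACS gates gives F4/80lo Mϕ as MHCII+ and also as Ly6G-, which sets neutrophils apart, and takes out CD11c+, MHCII+ dendritic cells beforehand. Each of the 4 groups (F4/80lo VEH, F4/80lo CIII, F4/80hi VEH and F4/80hi CIII) holds 3 libraries numbered 1 to 3, so that all groups share zymosan, and no group without zymosan was analysed here. The study describes its data in general as coming from independent experiments, but for these libraries neither the labels nor the methods say whether those of a group came from separate mice or whether mice were pooled, so p-values measure the spread between these libraries, which may in part be technical.

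Macrophages take up dying cells and red cells and thereby have to handle heme, free iron and the peroxides that these produce. Heme oxygenase splits heme and frees its iron, ferritin stores that iron and ferroportin carries it out of the cell, while the glutathione and thioredoxin systems and superoxide dismutase remove peroxides and superoxide. Many of these genes are known targets of the transcription factor NRF2, which binds antioxidant response elements in DNA. Ferritin and ferroportin are also controlled at translation, through an iron-responsive element, a hairpin in the 5′ UTR of the mRNA that binds iron regulatory proteins. The libraries measure mRNA and not translation.

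The sequences behind both layers are shown first because they divide the 10 genes into groups that are used below. The iron-responsive element was searched in the 5′ UTRs of the GENCODE transcripts (GRCm38) as CNNNNNCAGTGN, with 5 paired bases on either side of the loop. It was found in 3 of the 10 genes, Fth1, Ftl1 and Slc40a1, and in 31 of 20899 genes in all (0.148%). In these lines the loop is in capitals, each sequence is read on the gene's own strand, and each site lies within 1 exon.
Fth1 (chr19:9982734-9982758, + strand): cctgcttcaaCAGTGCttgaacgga
Ftl1 (chr7:45459781-45459805, − strand): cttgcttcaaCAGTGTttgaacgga
Slc40a1 (chr1:45925467-45925491, − strand): acttcagctaCAGTGTtagctaagt
The antioxidant response element was searched as TGACNNNGC on both strands of the RefSeq promoter windows (GRCm38.p6), which run from 250 bases before to 50 bases after each start. Windows were given for 8 of the 10 genes, all but Hmox1 and Slc40a1. A match was found in 4 of these 8 genes, Gclm, Txnrd1, Prdx1 and Srxn1, and in 3781 of 27025 genes in all (14.0%). In the next lines the match is in capitals, and all 4 matches read on the strand opposite to the gene.
Gclm (chr3:122245413-122245441): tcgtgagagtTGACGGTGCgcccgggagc
Txnrd1 (chr10:82859104-82859132): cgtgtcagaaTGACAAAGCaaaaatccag
Prdx1 (chr4:116685456-116685484): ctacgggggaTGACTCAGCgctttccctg
Srxn1 (chr2:152105542-152105570): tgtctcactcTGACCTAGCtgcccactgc
The Txnrd1 match lies in 1 of its 3 windows. A match is a description of letters and not a tested binding site.

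The libraries held 426624 to 3389448 reads on genes, and 3 reads, the most that a count of 0 allows, equal 0.885 to 7.03 RPM (reads scaled to the library's total of reads on genes, in the usual unit). All 6 general macrophage markers were read in every library. Adgre1, which encodes F4/80, was at 205 to 381 RPM in F4/80lo Mϕ and at 1064 to 1336 in the F4/80hi libraries numbered 1 and 2. The F4/80hi libraries numbered 3 went against their label, with Adgre1 at 366 (VEH) and 368 (CIII), Gata6, the regulator of resident peritoneal Mϕ, at 1.90 and 5.73, and the monocyte receptor Ccr2 at 1199 and 704. F4/80lo VEH library 3 went against its label of high MHCII, with the MHCII genes H2-Aa at 602, H2-Ab1 at 680 and H2-Eb1 at 573 RPM, where the other 5 F4/80lo libraries had at least 4511, 3700.3 and 1728. Values with the libraries numbered 1 and 2 only, given below, leave out all 3 of these libraries. The RNA Gm42418 took 2.65% to 14.3% of the reads of the 4 libraries numbered 3 and at most 0.579% of any other. Summed levels of the 6 resident Mϕ markers ran from 566 to 1313 among F4/80lo libraries and from 664 to 3833 among F4/80hi libraries, those of 5 dendritic cell markers from 3.54 to 121 and from 0 to 20.2, those of 5 B cell markers from 17.1 to 160 and from 0 to 57.5, those of 5 T and NK cell markers from 7.06 to 51.6 and from 1.45 to 66.6, and those of 6 erythroid markers from 4.24 to 484 and from 0 to 1460. Neutrophil markers summed to at most 124, with Ly6g at 0 in all 6 F4/80hi libraries, eosinophil and mast cell markers to at most 16.9, with Epx, Prg2 and Mcpt4 at 0 in every library, and mesothelial markers to at most 1.20, with Msln, Upk3b and Krt19 at 0 in every library. Markers of monocyte-derived Mϕ, 6 genes of which 4 (H2-Aa, H2-Ab1, H2-Eb1 and Cd74) belong to the MHCII pathway, summed to 4344 to 14676 in VEH and 15501 to 27689 in CIII libraries of F4/80lo Mϕ, without overlap, and to 758 to 3117 and 1520 to 14295 in F4/80hi Mϕ. The part of other cells in the results was not tested, and in bulk samples fewer cells of a type and less RNA per cell cannot be told apart.

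Fth1 (ENSMUSG00000024661, chr19:9980598-9985098, + strand) encodes the ferritin heavy chain, which oxidises iron for storage. Values are given as normalized counts, reads divided by the authors' size factor of the library, and genes with a mean under 3 were not tested. In F4/80lo Mϕ Fth1 stood at 1664, 616 and 661 normalized counts in the VEH libraries (in the order of their numbers, as in all that follows) and at 456, 434 and 471 in the CIII libraries. In F4/80hi Mϕ it stood at 2950.4, 896 and 1011 in VEH and at 1020.1, 721 and 561 in CIII. VEH library 1 was the highest in both subpopulations. All 3 CIII libraries were below all 3 VEH libraries in F4/80lo, while in F4/80hi CIII library 1 overlapped VEH libraries 2 and 3. The difference between CIII and VEH was −0.95 ± 0.42 (SE, n = 3 per group) on the log2 scale in F4/80lo Mϕ and −0.90 ± 0.52 in F4/80hi Mϕ. Neither passed the test over all genes (limma, adjusted p = 0.9996 and 0.992; unadjusted p = 0.0448 and 0.115). Same-numbered libraries deviated together, though some differently numbered libraries did so as much. With the library number as a block in limma, the unadjusted p was 0.0113 and 0.0131 but the adjusted p still 0.682 and 0.298. The values without VEH library 1 were −0.49 among F4/80lo libraries and −0.35 among F4/80hi libraries, and the exact permutation test of the F4/80lo libraries gave p = 0.1, the smallest that 3 against 3 allows. The summed markers of monocyte-derived Mϕ were higher in all 3 CIII libraries of F4/80lo Mϕ, though of the 6 single markers only H2-Aa showed no overlap, and their part in the Fth1 difference was not tested.

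Ftl1 (ENSMUSG00000050708, chr7:45457944-45459884, − strand), the ferritin light chain, had 414, 376 and 261 normalized counts in F4/80lo Mϕ with VEH, against 270.3, 399.8 and 180.2 with CIII. Among F4/80hi libraries VEH had 889.5, 266 and 314 and CIII 334, 289.6 and 135. VEH library 1 of F4/80hi Mϕ again stood far above the rest, and the treatments overlapped in both subpopulations. The CIII effect was −0.35 ± 0.38 in F4/80lo Mϕ, and −0.84 ± 0.53 in F4/80hi Mϕ on the log2 scale (limma, adjusted p = 0.9996 and 0.992), and the latter was −0.30 without VEH library 1. The F4/80lo value ran from −0.64 without CIII library 2 to −0.06 without CIII library 3. Fth1 and Ftl1 together took 0.213% of the reads of F4/80lo VEH library 1 and 0.399% of F4/80hi VEH library 1, and 0.0683% to 0.150% of the other 10 libraries.

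Slc40a1 (ENSMUSG00000025993, chr1:45908068-45926523, − strand) encodes ferroportin, the only known iron exporter of mammalian cells and the third of the genes with an iron-responsive element in the 5′ UTR. It had 1 read in all 12 libraries together, in CIII library 3 of F4/80hi Mϕ, and 0 in the 11 others. The 1 read equals 0.573 RPM in that library, a count of 0 in the others allows up to 0.885 to 7.03 RPM, and the gene was left out of all tests by the minimum mean of 3.

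Hmox1 (ENSMUSG00000005413, chr8:75093621-75100589, + strand) encodes the inducible heme oxygenase, which opens the heme ring. Its normalized counts in F4/80lo Mϕ were 442, 281 and 276 in VEH and 318, 319.8 and 304 in CIII libraries. The F4/80hi values were 440.1, 443 and 519 in VEH and 399.9, 392 and 556 in CIII libraries. The treatments overlapped in both subpopulations, and the log2 difference between CIII and VEH was −0.05 (95% interval −0.78 to 0.68) among F4/80lo libraries and −0.07 (−0.80 to 0.66) among F4/80hi libraries. The former was 0.17 without VEH library 1, and the latter at most 0.017 above 0 without VEH library 3, CIII library 1 or CIII library 2. Hemoglobin RNA varied across the same libraries, with Hbb-bs at 877 RPM in F4/80hi VEH library 3, at 294 in F4/80lo VEH library 3 and at 0 to 55.6 in the 10 others, and its part in the level of Hmox1 was not tested.

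**Figure D1:**
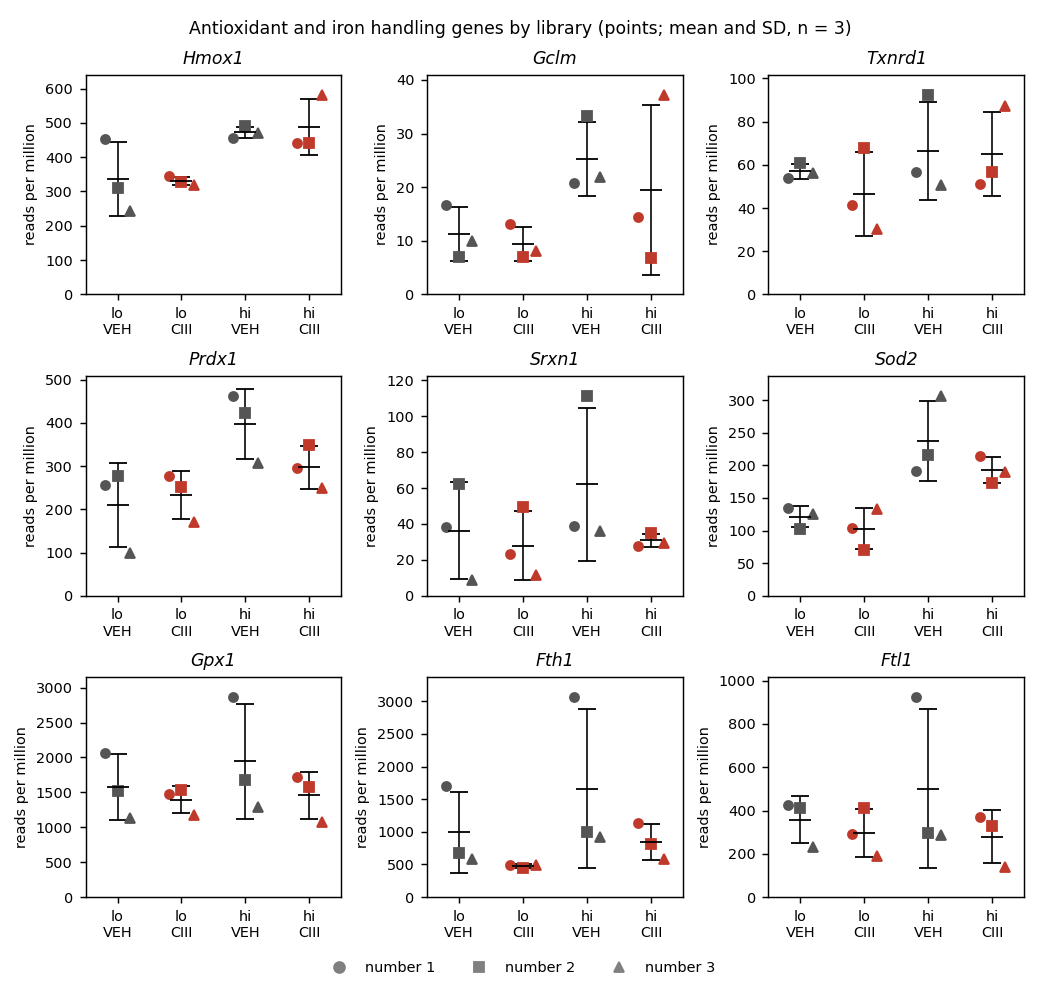
Level of the 9 measured antioxidant and iron handling genes in each of the 12 libraries, in RPM on the y axis, for VEH (grey) and CIII (red) libraries of F4/80lo and F4/80hi Mϕ on the x axis; marker shapes give the library number, and black bars the mean and SD of 3 libraries. VEH library 1 stands far above the rest for Fth1 in both subpopulations (1709 and 3064 RPM), and Sod2 is the one gene whose 6 F4/80lo libraries all lie below its 6 F4/80hi libraries.

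Among the thiol-based antioxidants, Srxn1 and Prdx1 form a pair, since Prdx1 is a peroxiredoxin that reduces hydrogen peroxide and Srxn1 is the sulfiredoxin that repairs peroxiredoxins once they are over-oxidised. Srxn1 (ENSMUSG00000032802) lies at chr2:152105516-152111376 and Prdx1 (ENSMUSG00000028691) at chr4:116685544-116700822, both on the + strand, in GRCm38 like all positions here. In F4/80hi Mϕ Srxn1 had 37.2, 101 and 39.8 normalized counts in VEH and 25.3, 31.2 and 27.9 in CIII libraries. Prdx1 had 445, 381 and 337 in VEH and 268, 309 and 237 in CIII libraries. All CIII libraries were below all VEH libraries for both genes. The log2 difference was −0.90 ± 0.46 (SE, n = 3 per group) for Srxn1 and −0.51 ± 0.31 for Prdx1, and neither passed (limma, adjusted p = 0.992 for both; 0.383 and 0.459 with the library number as a block). The Srxn1 value was −0.44 without VEH library 2, the highest of the 12 libraries for this gene.

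In F4/80lo Mϕ the same genes showed no such order. Srxn1 had 37.2, 56.5 and 9.66 normalized counts in VEH and 21.3, 48.0 and 11.1 in CIII libraries. Prdx1 had 250.2, 252 and 112 in VEH and 255, 244 and 163 in CIII libraries. Libraries numbered 3 were the lowest of each treatment for both genes, and the treatments overlapped. The log2 difference was −0.28 (95% interval −1.83 to 1.28) for Srxn1 and 0.17 (−0.71 to 1.05) for Prdx1. Neither direction held, since Prdx1 was at −0.21 without VEH library 3 and at −0.0059 with the libraries numbered 1 and 2 only, and Srxn1 at 0.23 without VEH library 2 and at 0.21 without CIII library 3. The interval of Srxn1 thus still holds changes of more than 2-fold in either direction. The difference between the subpopulations in the CIII response of Prdx1 was itself tested and was 0.69 ± 0.49 on the log2 scale (limma, adjusted p = 0.999).

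Txnrd1 (ENSMUSG00000020250, chr10:82833951-82897712, + strand), the cytosolic thioredoxin reductase, had 52.4, 55.2 and 63.6 normalized counts in VEH and 38.3, 66.2 and 28.7 in CIII libraries of F4/80lo Mϕ. The F4/80hi libraries had 54.5, 83.6 and 55.6 in VEH and 46.2, 50.5 and 83.1 in CIII libraries. The treatments overlapped, with log2 differences of −0.43 ± 0.42 and −0.13 ± 0.38 (SE, n = 3 per group), and the former ran from −0.76 without CIII library 2 to −0.17 without CIII library 3. The F4/80hi value turned to 0.072 without VEH library 2 and to 0.034 without CIII library 1, and was −0.48 with the libraries numbered 1 and 2 only. Gclm (ENSMUSG00000028124, chr3:122245557-122270732, + strand), the regulatory subunit of the enzyme that makes the first step of glutathione synthesis, had 16.3, 6.42 and 11.3 in VEH and 12.1, 6.85 and 7.74 in CIII libraries of F4/80lo Mϕ. The F4/80hi libraries had 19.9, 30.0 and 24.1 in VEH and 13.0, 6.01 and 35.6 in CIII libraries. Gclm rested on 3 to 65 reads per library, and its log2 difference was −0.27 ± 0.65 in F4/80lo Mϕ, and −0.73 ± 0.62 in F4/80hi Mϕ (limma, adjusted p = 0.9996 and 0.992). The F4/80lo value was 0.012 without VEH library 1. The F4/80hi value ran from −1.36 without CIII library 3 to −0.17 without CIII library 2.

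Gpx1 (ENSMUSG00000063856, chr9:108338903-108340343, + strand), the glutathione peroxidase of cytosol and mitochondria, had 2015, 1377 and 1284 normalized counts in VEH and 1361, 1496 and 1125 in CIII libraries of F4/80lo Mϕ. The F4/80hi libraries had 2758, 1514 and 1423 in VEH and 1558, 1394 and 1026 in CIII libraries. VEH library 1 was the highest in both subpopulations, as for Fth1. The log2 difference was −0.21 ± 0.38 in F4/80lo Mϕ, and −0.47 ± 0.43 in F4/80hi Mϕ, with overlapping treatments. Without VEH library 1 these values were −0.01 and −0.17.

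Sod2 (ENSMUSG00000006818, chr17:13006846-13040063, + strand), the manganese superoxide dismutase of mitochondria, had 131, 93.7 and 141 normalized counts in VEH and 95.8, 68.5 and 127 in CIII libraries of F4/80lo Mϕ. The F4/80hi libraries had 183, 195 and 337 in VEH and 193, 154 and 182 in CIII libraries. In F4/80lo Mϕ each CIII library was below the VEH library of the same number, while the groups overlapped. The log2 difference was −0.35 ± 0.37 in F4/80lo Mϕ, and −0.38 ± 0.35 in F4/80hi Mϕ (limma, adjusted p = 0.9996 and 0.992). The F4/80hi value was −0.11 without VEH library 3 and −0.13 with the libraries numbered 1 and 2 only, and the F4/80lo value ran from −0.56 without CIII library 3 to −0.12 without CIII library 2.

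Over the 9 measured genes, no CIII effect passed an adjusted p of 0.05 in either subpopulation (limma), with and without the library number as a block. The share of all genes that passed in these limma fits was 0% of 10718 among F4/80lo libraries and 0% of 10499 among F4/80hi libraries. At an unadjusted p under 0.05, limma gave 289 genes among F4/80lo libraries and 413 among F4/80hi libraries. Both are under a share of 0.05 of the genes tested, which the threshold gives on average where no gene changes. With the library number as a block there were 738 and 1187 such genes, both above that share. On the recovered reads edgeR called 0 genes in both and DESeq2 2 and 0. With the block edgeR called 4 and 0 genes and DESeq2 19 and 94. The CIII mean was lower for 8 of the 9 in F4/80lo Mϕ (all but Prdx1, and 7 of the 9 with equal library totals, where Hmox1 was at 0.02), with a median log2 difference of −0.28 beside −0.05 over all genes tested. This summary rested on single libraries, since 6 of the 9 were lower with a median of −0.07 without VEH library 1, and 7 of the 9 with a median of −0.10 without CIII library 3. The CIII mean was lower for all 9 in F4/80hi Mϕ, with a median of −0.51 beside 0.05 (7 to 9 genes and −0.65 to −0.35 leaving out 1 library), except that Hmox1 turned to 0.04 with equal library totals and to 0.02 with quantile normalization. Equal totals moved the median of all genes by 0.10 in F4/80hi Mϕ. CIII libraries were all below VEH libraries for 1 of the 9 genes in F4/80lo Mϕ (Fth1) against 4.92% of all genes, and for 2 of the 9 in F4/80hi Mϕ (Srxn1 and Prdx1) against 5.76%. None of the 9 had all CIII libraries above, against 3.82% and 4.73% of all genes. With the libraries numbered 1 and 2 only, CIII libraries were all below for 1 of 9 (Fth1) against 19.2% of all genes in F4/80lo and for 5 of 9 against 19.8% in F4/80hi Mϕ, and the CIII mean was lower for all 9 in both. No difference between the subpopulations in the CIII response passed for any of the 9 genes (limma interaction, adjusted p at least 0.999 without and 0.904 with the block), as for 0% of 10097 genes, with and without the block.

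**Figure D2:**
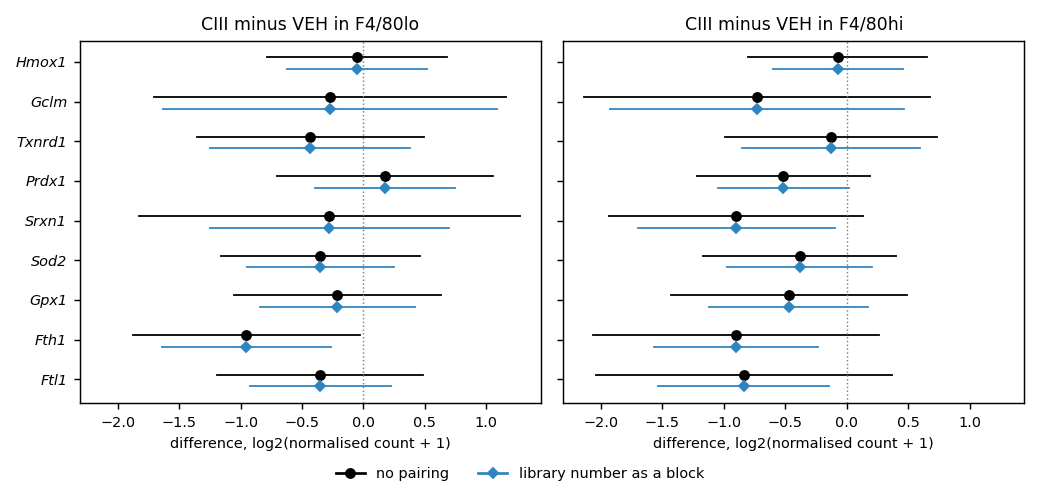
Difference between CIII and VEH for each of the 9 genes, on the log2(normalized count + 1) scale (x axis), in F4/80lo (left) and F4/80hi Mϕ (right); points are the estimates and lines the 95% intervals, without pairing (black) and with the library number as a block (blue). Only the interval of Fth1 in F4/80lo Mϕ lies below 0 without pairing, from −1.88 to −0.03, and none of the differences passed the adjusted test.

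Levels in the 2 subpopulations were compared in RPM over all 12 libraries, which sets aside the size factors that the authors fixed within each table. All 9 genes had a lower mean in F4/80lo than in F4/80hi Mϕ, with a median log2 difference of −0.64 beside 0.07 over the 10736 genes tested, and also with TMM scaling, with quantile normalization and with totals that leave out Gm42418. Leaving out 1 library left 7 to 9 of the 9 lower, the fewest without F4/80hi VEH library 1. Sod2 ranged from 70.3 to 135 RPM (median 114) among F4/80lo libraries and from 173 to 306 (median 202) among F4/80hi libraries, so that all 6 F4/80lo libraries were below all 6 F4/80hi libraries. This was so for 1 of the 9 genes and for 0.13% of all genes. With the libraries numbered 1 and 2 only it was so for 2 of the 9 (Sod2 and Prdx1), against 4.32% of all genes. The Sod2 level in F4/80lo was 0.406 to 0.709 of that in the F4/80hi library of the same treatment and number, and the log2 difference was −0.95 ± 0.23 (SE, n = 6 per subpopulation).

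Hmox1 ranged from 244 to 454 RPM (median 323) among F4/80lo libraries and from 441 to 583 (median 464) among F4/80hi libraries. Prdx1 ranged from 99.1 to 277 (median 254) among F4/80lo libraries and from 248 to 463 (median 327) among F4/80hi libraries. Fth1 ranged from 445 to 1709 (median 540) among F4/80lo libraries and from 588 to 3064 (median 955) among F4/80hi libraries. These ranges overlapped, yet each of the 3 genes, like Sod2, was lower in F4/80lo in all 6 same-numbered pairs, which was so for 4 of the 9 genes and for 3.95% of all genes. For Hmox1 VEH pair 1 was nearly level, at 454 against 457 RPM (ratio 0.994), and its count of 6 rests on that pair. Log2 differences were −0.55 ± 0.22 for Hmox1, −0.70 ± 0.28 for Prdx1 and −0.72 ± 0.36 for Fth1. The Fth1 value was −0.44 without F4/80hi VEH library 1, and the Prdx1 value −0.46 without F4/80lo VEH library 3. The exact sign permutation test over the 6 pairs gave p = 0.03125 for each of the 4 genes, the smallest it can give, unadjusted for the 9 genes tested.

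For the other 5 genes the ranges overlapped and at least 1 pair went the other way. Gclm ranged from 7.03 to 16.7 RPM among F4/80lo and from 6.77 to 37.3 among F4/80hi libraries, with a log2 difference of −0.93 ± 0.43. Srxn1 ranged from 8.56 to 62.1 and from 27.9 to 111, with a log2 difference of −0.64 ± 0.49, which was −0.25 without F4/80lo VEH library 3. Txnrd1, at 30.1 to 68.0 and 50.4 to 92.5, differed by −0.34 ± 0.28, and by −0.21 without F4/80lo CIII library 3. Gclm and Srxn1 were lower in F4/80lo in 5 of 6 pairs and Txnrd1 in 4 of 6. With the libraries numbered 1 and 2 only, the log2 differences were −0.61 for Gclm, −0.16 for Srxn1 and −0.18 for Txnrd1. Gpx1, at 1137 to 2070.1 and 1076 to 2863 RPM, differed by −0.15 ± 0.29 and was lower in F4/80lo in 5 of 6 pairs. Ftl1, at 189 to 425 and 141 to 924, differed by −0.09 ± 0.36 and was lower in F4/80lo in 3 of 6 pairs. Without F4/80hi VEH library 1 the Gpx1 difference was 0.0065 and that of Ftl1 0.19, and the latter was also above 0 without F4/80lo VEH library 3, F4/80lo CIII library 3 or F4/80hi CIII library 1 (0.043 to 0.059) and within CIII alone (0.14). The difference between the 2 ferritin genes was not tested.

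Without pairing, none of the 9 differences between the subpopulations passed (limma, adjusted p = 0.158 for Sod2, the smallest of the 9), and 4 of 10736 genes passed in all, 1 of them (0.00931%) lower in F4/80lo Mϕ. Among the unpaired alternatives Sod2 passed with DESeq2 (adjusted p = 0.00851). It also passed in limma with array weights (0.0251) and with the libraries numbered 1 and 2 only (0.0452). In these 3 fits 141, 322 and 343 genes passed in all. With the same-numbered pair as a block, 3 of the 9 genes were lower in F4/80lo Mϕ, Sod2 (limma, adjusted p = 0.00481), Fth1 (0.0185) and Prdx1 (0.0235), while Hmox1 did not pass (0.0640). In that fit 582 genes passed, 370 higher and 212 (1.97% of all genes) lower in F4/80lo Mϕ. The split was 281 higher and 268 lower with TMM scaling and 333 higher and 306 lower with quantile normalization. The libraries numbered 1 and 2 alone leave out the F4/80hi libraries that went against their label in part. With them the paired fit called Sod2 (−0.97, adjusted p = 0.00135) and Fth1 (−0.86, adjusted p = 0.000521) but not Prdx1 (−0.51, adjusted p = 0.0685). It called 4.92% of all genes lower. Sod2 passed in every paired fit that left out 1 pair, whereas Fth1 did not pass without VEH pair 1, VEH pair 2, CIII pair 1 or CIII pair 2 (adjusted p = 0.0949, 0.0652, 0.117 and 0.0738), nor Prdx1 without VEH pair 1, VEH pair 3, CIII pair 1 or CIII pair 2 (0.0796, 0.0619, 0.0652 and 0.0800). Within VEH alone the log2 difference was −0.95 for Sod2, −0.68 for Fth1 and −1.02 for Prdx1, and within CIII alone −0.95, −0.77 and −0.37.

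**Figure D3:**
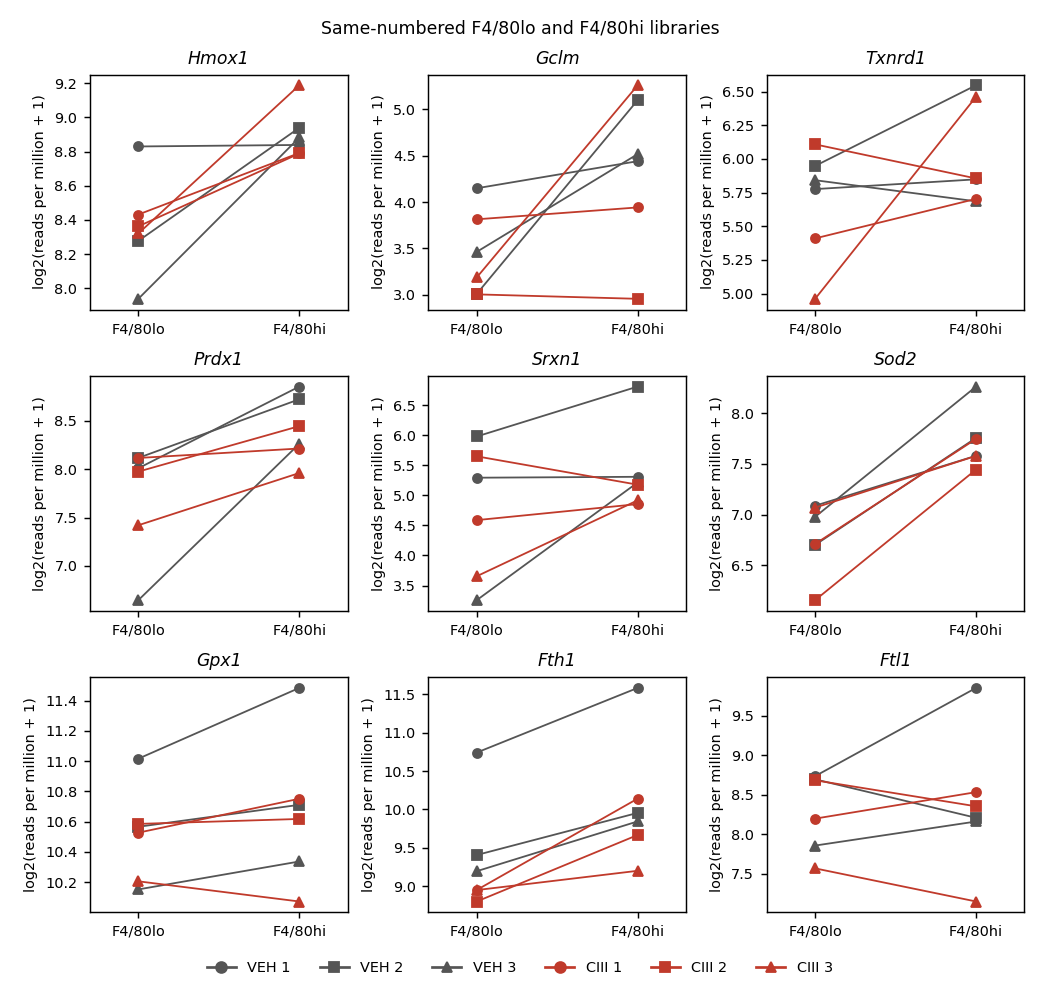
Level of the 9 genes in F4/80lo and F4/80hi Mϕ, as log2(RPM + 1) on the y axis, with a line for each pair of libraries of the same treatment and number (VEH grey, CIII red, marker shape by number). All 6 lines rise from F4/80lo to F4/80hi for Hmox1, Prdx1, Sod2 and Fth1, while 3 rise and 3 fall for Ftl1.

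Other genes of the same pathways were described from 6 lists with 70 genes, of which 59 were tested in F4/80lo, 59 in F4/80hi and 58 between the subpopulations. In F4/80lo Mϕ no listed gene passed for CIII, and 27 were higher and 32 lower, with a median log2 difference of −0.04 beside −0.05 over all genes. In the glutathione list 10 of 12 tested genes were lower (median −0.52) and in the thioredoxin and peroxiredoxin list 8 of 9 (median −0.19). All 6 tested genes of superoxide and hydrogen peroxide removal and NADPH supply were higher (median 0.23), as were 11 of 20 genes of heme breakdown and iron traffic (median 0.10), 3 of 6 NRF2 regulators (median −0.04) and 4 of 6 NADPH oxidase subunits (median 0.06). None of these lists held a gene that passed, and the difference between lists was not tested.

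Treatments did not overlap for 6 listed genes in F4/80lo Mϕ. Hp, which encodes haptoglobin, the plasma protein that binds free hemoglobin, had 37.2, 38.5 and 61.0 normalized counts in VEH and 83.0, 82.2 and 114 in CIII libraries, a log2 difference of 1.03 ± 0.38 (limma, adjusted p = 0.9996). Steap3, a reductase of endosomal iron, had 48.9, 55.2 and 40.0 in VEH and 126, 57.1 and 82.9 in CIII libraries, a difference of 0.81 ± 0.40 that was 0.52 without CIII library 1. Both were above their VEH libraries in every CIII library. Blvra, the biliverdin reductase that acts after heme oxygenase, had 106, 82.2 and 66.0 in VEH and 53.9, 50.3 and 48.6 in CIII libraries, a difference of −0.70 ± 0.36. The glutathione synthetase Gss differed by −1.86 ± 0.93 on only 0 to 19 reads per library, the peroxiredoxin Prdx6 by −0.38 ± 0.34 and the iron chaperone Pcbp2 by −0.27 ± 0.31, all 3 with every CIII library below every VEH library. Without CIII library 2 the values were −1.18 for Gss and −0.25 for Prdx6. These 2 higher genes and 4 lower genes were 2 and 4 of 59, beside the 3.82% and 4.92% of all genes given above.

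In F4/80hi Mϕ 27 of the 59 tested genes were higher and 32 lower with CIII (median log2 difference −0.05 beside 0.05), and none passed. In the thioredoxin and peroxiredoxin list 8 of 9 were lower (median −0.68), in the glutathione list 9 of 11 (median −0.63) and in the list of superoxide and hydrogen peroxide removal and NADPH supply 5 of 6 (median −0.34). All 6 tested NRF2 regulators were higher (median 0.39), as were 14 of 21 genes of heme breakdown and iron traffic (median 0.15), while NADPH oxidase subunits were split 3 and 3. Txn1, the cytosolic thioredoxin that Txnrd1 reduces, had 1619, 875 and 1157 normalized counts in VEH and 840.3, 546 and 272 in CIII libraries. Its log2 difference was −1.24 ± 0.48 (limma, adjusted p = 0.992, and 0.192 with the library number as a block). This value was −0.80 without CIII library 3, a library that went against its label in part. Prdx2, another cytosolic peroxiredoxin, differed by −0.67 ± 0.34 and the mitochondrial glutaredoxin Glrx2 by −0.63 ± 0.38, both with every CIII library below every VEH library. Every CIII library was above every VEH library for Hp (0.35 ± 0.32), for Aco1, whose protein is an iron regulatory protein when it lacks its iron-sulfur cluster (0.68 ± 0.41), and for Cybb, the catalytic subunit of the phagocyte NADPH oxidase (0.54 ± 0.42). Without VEH library 3 the Glrx2 value was −0.35 and the Aco1 value 0.36, and without CIII library 3 the Cybb value was 0.31. These were 3 lower and 3 higher of 59 genes, beside 5.76% and 4.73% of all genes.

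Between the subpopulations 39 of the 58 tested genes were lower and 19 higher in F4/80lo Mϕ (median log2 difference −0.18 beside 0.07). None passed without pairing in limma over all 12 libraries. With the libraries numbered 1 and 2 only, 4 listed genes passed without pairing, all lower in F4/80lo Mϕ, beside 154 of 10671 genes lower in all. With the pair as a block 4 genes were lower, 2 of the thioredoxin and peroxiredoxin list and 2 of the glutathione list, beside 1.97% of all genes, and these 4 genes, whose groups overlapped, were chosen for naming after their values were seen. Txn1 ranged from 204 to 749 RPM (median 344) among F4/80lo libraries and from 285 to 1682 (median 949) among F4/80hi libraries, a log2 difference of −1.27 ± 0.33 (limma, adjusted p = 0.19 without and 0.000537 with the pair as a block). Gsto1, an omega-class glutathione transferase, differed by −1.29 ± 0.39, the microsomal glutathione transferase Mgst1 by −1.09 ± 0.39 and Prdx6 by −0.80 ± 0.30. All 4 were lower in F4/80lo in all 6 pairs. With the libraries numbered 1 and 2 only, the paired fit called 8 listed genes, 7 of them lower in F4/80lo Mϕ, and these 4 were among the 8, beside 4.92% of all genes lower in that fit. Genes of heme breakdown and iron traffic were lower in F4/80lo in 17 of 20 cases (median −0.21), the NADPH oxidase subunits higher in 4 of 6 (median 0.21), the NRF2 regulators split 3 and 3 (median 0.00), and the superoxide and hydrogen peroxide genes split 3 and 3 (median −0.05). None of these 4 lists held a gene that passed in the fits of all 12 libraries in RPM.

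**Figure D4:**
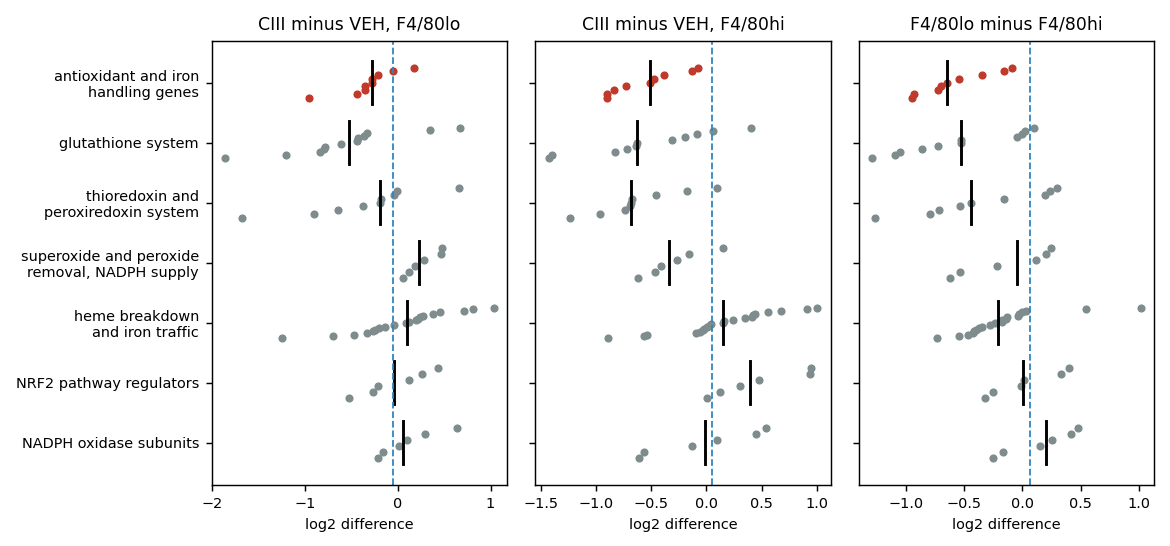
Log2 differences (x axis) of the 9 measured antioxidant and iron handling genes (red) and of the genes of 6 pathway lists (grey), 1 point per gene, for CIII minus VEH in each subpopulation and for F4/80lo minus F4/80hi Mϕ; black bars are list medians and the dashed blue line the median of all genes tested. The medians of the glutathione and of the thioredoxin and peroxiredoxin lists lie below the line in all 3 panels (−0.52, −0.63 and −0.53; −0.19, −0.68 and −0.44). None of the genes shown passed an adjusted p of 0.05 without pairing in the limma fits drawn here.

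Set against the sequences, of the genes with an iron-responsive element in the 5′ UTR Fth1 was lower in F4/80lo in all 6 pairs and Ftl1 in 3 of 6, while for CIII the log2 differences given above were below 0 for both in both subpopulations and did not pass. Slc40a1 could not be measured. Of the 4 genes with an antioxidant response element match, Prdx1 was lower in F4/80lo in all 6 pairs, Gclm and Srxn1 in 5 and Txnrd1 in 4. Of the searched genes without a match, Sod2 and Fth1 were lower in all 6 pairs, Gpx1 in 5 and Ftl1 in 3. Over all 12 libraries Sod2 was the only 1 of the 9 without overlap between the subpopulations. With the libraries numbered 1 and 2 only, Sod2 and Prdx1 were both without overlap. Ferritin genes have near-identical copies. Of the copies with a ferritin name Ftl1-ps1 had 17 and Fth-ps2 6 reads in all 12 libraries, and copies under other names were not looked for. The handling of reads that match several copies is not given in the sources used here. Such reads may be missing from all counts, so the reads on the copies do not bound the uncertainty of the ferritin values. Gclm overlaps the antisense transcript Gm17494, which had 9 reads in all.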

How the data were processed

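RNA from FACS-sorted Mϕ was made into 3′ mRNA libraries with unique molecular identifiers (UMI), and reads were trimmed with Bbduk, mapped to GRCm38 with STAR, collapsed by UMI and counted per gene with HTSeq-count by the authors, in versions not given in the sources used here. The deposited signal values are normalized counts, made by the authors with DESeq2 size factors set separately for each subpopulation. In all 12 libraries 100% of the values were whole multiples of 1 read (within 0.01), so reads were recovered, and 0 columns were left unmapped. GENCODE vM21 gave symbols and coordinates for 47224 of 47643 identifiers.

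CIII and VEH were compared within each table by limma 3.58.1 (R 4.3.3) on log2(normalized count + 1), over genes with a mean of at least 3, with a mean-variance trend and two-sided tests with Benjamini-Hochberg adjustment at 0.05. The difference of responses was an interaction over 12 libraries. Subpopulations were compared on log2(RPM of the recovered reads + 1). A fold change on these scales understates the change of genes with few reads. Count tests (edgeR 4.0.16, DESeq2 1.42.0) were run on the recovered reads as alternatives. The main limma fits and edgeR, with and without the block, and DESeq2 without it were also run on simulated counts. The outcome of these runs is not given here. DESeq2 with the block, array weights, other scalings and smaller sets of libraries were not run on simulated counts. Exact permutation tests used scipy 1.17.1 and figures matplotlib 3.10.9. Libraries that share a number deviated together, with correlations across genes of 0.121 to 0.504 in F4/80lo, 0.216 to 0.639 in F4/80hi and 0.259 to 0.685 between subpopulations, so the number was taken as pairing. Differently numbered libraries had −0.361 to 0.171, −0.525 to 0.285 and −0.465 to 0.211. These ranges overlapped the former within each subpopulation but not between subpopulations. In each comparison the highest value was that of libraries numbered 3, which were high in Gm42418. This pairing comes from the replicate numbers and these deviations alone.

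The genes, the pathway lists and the marker lists were chosen with earlier results of these data known. All 10 genes are given; within each pathway list, up to 3 genes in each direction with the smallest p among those whose groups did not overlap are named for each comparison. Between subpopulations no listed gene met this, and the 4 genes named there (Txn1, Gsto1, Mgst1 and Prdx6) were chosen after their values were seen. Alternatives were other pseudocounts, filters and scalings, array weights, leaving out libraries, and the replicate block. The count tests, the combinations with the block and leaving out libraries for the pathway genes were chosen after seeing the data. Limits of a count of 0 (3 reads) cover counting error only.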

Additional observations from a re-analysis of the deposited data

Results flagged for a closer look

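In 7 of 18 sets of 6 libraries, each set being 1 gene in 1 subpopulation, 1 library stood apart from the other 5 by Dixon's criterion at the 95% level. Sets of independent, normally distributed values meet it in about 1 of 20 cases. These sets mix both treatments, are in RPM and share libraries, so that rate does not hold for them. VEH library 1 was that library for Fth1 in F4/80lo Mϕ (1709 RPM, next highest 678), for Fth1 in F4/80hi Mϕ (3064, next 1128), for Ftl1 in F4/80hi Mϕ (924, next 369.7) and for Gpx1 in F4/80hi Mϕ (2863, next 1723). In F4/80hi Mϕ it was VEH library 2 for Srxn1 (111, next 38.7), VEH library 3 for Sod2 (306, next 215) and CIII library 3 for Hmox1 (583, next 490.1). The last 2 are the libraries with low Adgre1 and Gata6. In all 7 sets the library was the highest, and 6 of the 7 were VEH libraries.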

How the results depend on the processing

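No CIII effect on any of the 9 genes, nor any difference of responses, passed under any alternative. Genes called in F4/80lo Mϕ for CIII rose from 0 to 2 with array weights, 12 with libraries 1 and 2 only (62 with the replicate block), 2 with DESeq2, 4 with edgeR and the block and 19 with DESeq2 and the block, and in F4/80hi Mϕ to 94 with DESeq2 and the block. Between subpopulations 4 genes became 0 with a pseudocount of 0.5, 11 with 5, 0 without a filter, 2 with a mean of 10, 2 with TMM, 2 with quantile normalization, 0 within VEH, 2 within CIII, 322 with array weights, 343 with libraries 1 and 2, 2 with edgeR and 141 with DESeq2. Leaving out 1 library gave 0 to 124 genes, the most without F4/80hi VEH library 3 (54 without F4/80lo VEH library 3, 8 without F4/80hi CIII library 3). With the pairs as a block 582 genes were called, 635 with edgeR, 540 with DESeq2, 1130 with libraries 1 and 2, 549 with TMM, 627 without Gm42418, 639 with quantile normalization, and 163, 163, 718, 188, 260 and 680 without VEH pairs 1 to 3 and CIII pairs 1 to 3. Of the 9 genes, called counts were 1 with array weights, libraries 1 and 2 or DESeq2, 3 with the block, 4 with edgeR, DESeq2 or TMM and the block (Hmox1 joining), 3 with the block and either totals without Gm42418 or quantile normalization, 2 with the block and libraries 1 and 2, and 1, 2, 2, 1, 1 and 3 with the block and without each pair. The block changed no other call of these genes.

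Signs turned only for values that did not pass. For CIII these were Hmox1 with equal totals (0.023 in F4/80lo, 0.036 in F4/80hi) or quantile normalization (0.021 in F4/80hi), and Prdx1 with libraries 1 and 2 (−0.0059, also with the block). For the difference of responses they were Hmox1 with equal totals (−0.013), quantile normalization (−0.12), array weights (−0.14), edgeR (−0.056, with the block −0.042) and DESeq2 (−0.00616), Sod2 with equal totals (−0.000694), array weights (−0.13) and libraries 1 and 2 (−0.32), Txnrd1 with libraries 1 and 2 (0.38), and Fth1 with DESeq2 and the block (0.037). Between subpopulations Ftl1 turned within CIII (0.14) and in the paired fit without VEH pair 1 (0.11) or CIII pair 1 (0.031). Leaving out 1 library, CIII effects in F4/80lo ran from −0.17 to 0.17 for Hmox1, −0.60 to 0.012 for Gclm, −0.99 to 0.23 for Srxn1 and −0.21 to 0.38 for Prdx1, and in F4/80hi from −0.23 to 0.017 for Hmox1 and −0.38 to 0.072 for Txnrd1. Differences of responses ran from −0.60 to 0.41 for Fth1, −0.055 to 0.81 for Ftl1, −0.11 to 1.08 for Gclm, −0.044 to 0.46 for Gpx1, −0.10 to 0.24 for Hmox1, −0.24 to 0.26 for Sod2 and −0.091 to 1.12 for Srxn1, and subpopulation differences from −0.30 to 0.19 for Ftl1 and −0.28 to 0.0065 for Gpx1. The cause was not tested. Reads limit Gclm (3 to 65 per library), Srxn1 (10 to 77) and Txnrd1 (26 to 191), and Slc40a1 could not be measured.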
